A study of Mus musculus with 20 samples.

Results

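The 9 genes described here encode the core of the mitochondrial iron-sulfur cluster assembly machinery: Nfs1, Lyrm4, Iscu, Hscb, Hspa9, Glrx5, Isca1, Isca2 and Nfu1. They were taken by name from a table of 23420 genes, and each name occurred as a row of the table. The table held RNA-seq read-pair counts from the whole hearts of 20 wild-type male C57BL/6 mice aged 9 weeks. From the age of 3 weeks, 10 mice received a control diet and 10 an iron-deficient diet, each for 6 weeks. The latter mice are called IDA, for iron-deficiency anemia. The labels disagree on the iron content of the deficient diet, one field giving less than 2 ppm and another more than 2 ppm. The study left out 1 contaminated sample of each group in its own analysis without naming it, so all 20 mice were kept here.

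Iron-sulfur clusters are built in the mitochondrial matrix before they reach the enzymes that use them. The cysteine desulfurase NFS1, held stable by LYRM4, takes sulfur from cysteine, and a first [2Fe-2S] cluster is formed on the scaffold ISCU with electrons from a ferredoxin. The co-chaperone HSCB and the chaperone HSPA9 release this cluster to GLRX5. The A-type proteins ISCA1 and ISCA2 then form [4Fe-4S] clusters, which NFU1 and other late factors hand to their clients, among them lipoic acid synthase and respiratory complexes I and II. Heart muscle, with its dense mitochondria, depends on these clients for oxidative metabolism. ISCU is also a known target of miR-210, a microRNA induced in hypoxia.

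The miR-210 seed and its complement in the members are shown because Iscu is the member through which this microRNA is known to act on cluster assembly. Among the 9 members, the 3′ untranslated regions (UTRs) of Iscu and Isca1 each held the complement of bases 2 to 8 of the mature microRNA, in GENCODE transcripts Iscu-201 and Isca1-201. The mature sequence is from RefSeq, and all coordinates are on mm10. The microRNA lies at chr7:141221407-141221428 on the minus strand, the Iscu window at chr5:113777972-113778000 on the plus strand and the Isca1 window at chr13:59755724-59755752 on the minus strand. Capitals mark the seed in the microRNA and its complement in the UTRs.
mmu-miR-210-3p: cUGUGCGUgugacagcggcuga
Iscu: tcaaagaagctacgcaaaACGCACActat
Isca1: actacaggccagccttgaACGCACAatcc
Each match lay within exons that were counted, beginning at base 72 of the Iscu 3′ UTR and base 1121 of the Isca1 3′ UTR. The same 7 letters occurred in a 3′ UTR of 493 of 12391 tested genes with one, or 3.98%. A match of letters is not a measured binding site. The row of the Mir210 gene held 0 read pairs in all 20 mice. The libraries were made from poly(A)-selected RNA, which does not carry mature microRNAs, so the table gives no level of miR-210 itself.

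Of the 9 members, 7 were higher in IDA hearts and 0 were lower when counts were scaled between libraries (TMM factors) with no other correction. Lyrm4, Iscu, Hscb, Glrx5, Isca1, Isca2 and Nfu1 rose by 1.09-fold to 1.32-fold, while Nfs1 and Hspa9 did not pass the test. A call here is an edgeR adjusted p below 0.05 (quasi-likelihood fit, Benjamini-Hochberg method, 13590 genes tested). All 9 members passed the filter of 1 CPM (read pairs per 1000000 assigned to genes) in 10 or more mice. Among all tested genes, 35% were higher in IDA and 32.5% were lower. The median log2 fold change of the members was 0.23, against 0.02 for all tested genes.

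All members but Hspa9 are shorter than the median tested gene, and fold changes followed gene length in these libraries. The median exonic length of the 9 members was 955 bases, against 2900 bases for all tested genes. In every IDA mouse short transcripts were high relative to long ones, and in every control mouse they were low. The log2 difference between short and long genes, each mouse set against the mean of all 20, ran from -0.52 to -0.06 in control mice and from 0.07 to 0.67 in IDA mice (permutation test, two-sided, p = 2e-05, the smallest value that 100000 resamples can give). The fold changes are therefore also given after a smooth trend on gene length was removed within each mouse. After this correction 0 members were higher and 2 were lower, Nfs1 and Isca2, where 31.5% of all tested genes were higher and 23.5% lower. The median over the members was then -0.0013. Diet and the length trend cannot be told apart in these 20 mice, so the uncorrected and the corrected values are set side by side below.

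**Figure D1:**
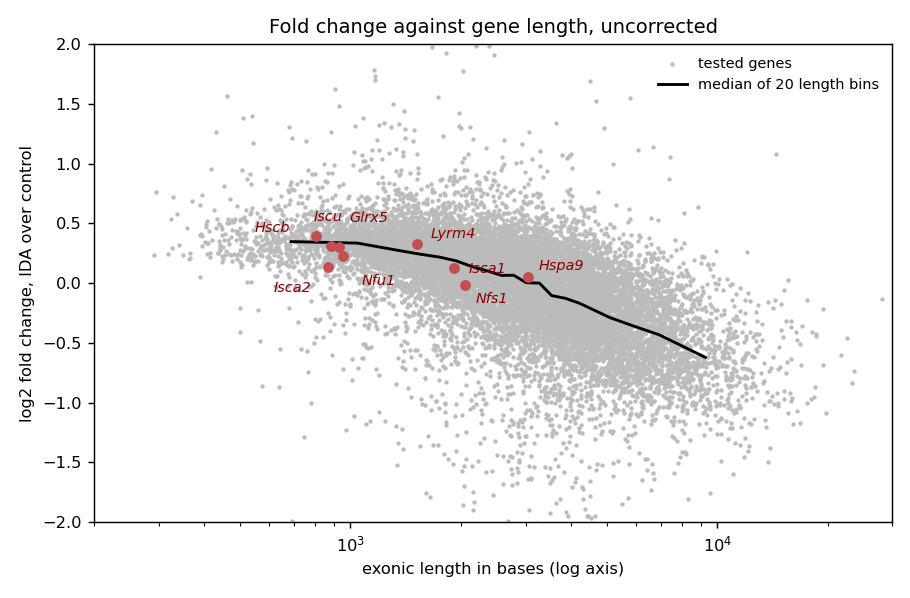
Uncorrected log2 fold change, IDA over control, of each tested gene (grey) against exonic length on a log axis, with the median of 20 length bins (black line) and the 9 members (red). The median falls from short to long genes, and Iscu, Glrx5 and Hscb lie near it; 50 genes lie outside the axes.

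Iscu encodes the scaffold on which the cluster is built (chr5:113772812-113778282, plus strand, 887 exonic bases). It was the only member whose groups did not overlap. Control mice had 57.6 to 70.5 CPM with a median of 65.0, and IDA mice 72.4 to 84.6 CPM with a median of 80.3. The lowest IDA heart therefore stood above the highest control heart, as was the case for 4.97% of all tested genes. No member had every IDA heart below every control heart, a pattern seen for 6.28% of tested genes. The mean rose from 64.6 ± 4.42 (SD, n = 10) to 80.0 ± 4.41 CPM (n = 10). This was a 1.24-fold rise, with a log2 fold change of 0.31 (SE 0.044, edgeR adjusted p = 2.8e-06). After the length correction the log2 difference was -0.0013 with a 95% interval of -0.09 to 0.09, so that Iscu rose as much as other genes of its length. A further correction for GC content gave -0.10 (adjusted p = 0.086). Each value rests on 448 to 636 read pairs a mouse.

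Nfs1 encodes the cysteine desulfurase (chr2:156123637-156144186, minus strand, 2053 exonic bases). Control mice had 161 to 185 CPM with a median of 172, and IDA mice 153 to 186 CPM with a median of 171. The IDA hearts spread on both sides of the control hearts, with 3 below the lowest control and 1 above the highest. The log2 fold change was -0.01 (SE 0.039, edgeR adjusted p = 0.78). With the length correction it was -0.12 (adjusted p = 0.021), and 8 of 10 IDA mice lay below the control mean. With length and GC content corrected together it was -0.04 (adjusted p = 0.38). In the annotation 34 exonic bases of Nfs1 overlap Romo1 on the opposite strand, and the counting did not use strand.

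Lyrm4 encodes the small partner protein that stabilizes NFS1 (chr13:35978797-36117357, minus strand, 1515 exonic bases). Control mice had 22.5 to 29.8 CPM with a median of 27.1, and IDA mice 28.0 to 37.3 CPM with a median of 33.3. In IDA, 8 of 10 hearts stood above the highest control heart. The rise was 1.26-fold, a log2 fold change of 0.33 (SE 0.061, edgeR adjusted p = 6.3e-05). It is the lowest-counted member per base of exon, at 181 to 289 read pairs a mouse. The length correction left 0.12 (95% interval 0.01 to 0.23, adjusted p = 0.051), and length with GC content left 0.23 (adjusted p = 0.0013). With lengths of the longest coding transcripts in GENCODE, 2086 bases for Lyrm4, the length correction left 0.18 (adjusted p = 0.0082).

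The desulfurase and its partner thus moved unequally. The log2 ratio of Nfs1 to Lyrm4 CPM within a mouse was 2.70 ± 0.114 in control and 2.36 ± 0.143 in IDA hearts (SD, n = 10 each), and the groups did not overlap. The difference was -0.34 (SE 0.058, permutation test of 100000 resamples, two-sided, p = 2e-05, adjusted over 5 ratios 5e-05). It remained at -0.24 with the length correction (p = 6e-05) and -0.27 with length and GC content (p = 2e-05), with groups that overlapped. Library numbers in the column names fall into a lower and an upper series, and within them the difference was -0.35 and -0.34. Of the 5 ratios examined, only this one had the same sign and passed the adjusted threshold under both corrections and with none. Other gene pairs were not examined, so how often a pair differs or separates in these mice is not known.

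The scaffold also rose relative to the desulfurase without correction and with the length correction alone. The log2 ratio of Iscu to Nfs1 was -1.41 ± 0.075 in control and -1.09 ± 0.077 in IDA hearts, again without overlap. The difference of 0.32 (SE 0.034, permutation p = 2e-05) fell to 0.12 with the length correction (p = 0.0028) and turned to -0.06 with length and GC content (p = 0.17). It was 0.37 within the lower and 0.25 within the upper series of library numbers.

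Hscb encodes the J-domain co-chaperone that brings loaded ISCU to the chaperone (chr5:110829070-110839777, minus strand, 804 exonic bases). Control mice had 18.1 to 24.5 CPM with a median of 21.7, and IDA mice 22.5 to 33.5 CPM with a median of 28.7. In IDA, 9 of 10 hearts stood above the highest control heart. The rise of 1.32-fold was the largest of the members, with a log2 fold change of 0.40 (SE 0.074, edgeR adjusted p = 6.1e-05), and Hscb is also the shortest of them. With the length correction it was 0.07 (95% interval -0.05 to 0.18, adjusted p = 0.33), and with length and GC content 0.22 (adjusted p = 0.0055).

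Hspa9 encodes mortalin, the matrix chaperone that also pulls imported proteins across the inner membrane (chr18:34937415-34954351, minus strand, 3042 exonic bases). Control mice had 441 to 557 CPM with a median of 483, and IDA mice 463 to 559 CPM with a median of 519. The groups overlapped almost completely, and 1 IDA heart stood above the highest control heart. The log2 fold change was 0.05 (SE 0.046, 95% interval -0.04 to 0.15, edgeR adjusted p = 0.33). It was 0.11 with the length correction (adjusted p = 0.075) and 0.35 with length and GC content (adjusted p = 4e-05). Hspa9 collected 3513 to 3920 read pairs a mouse, a mean of 1.24 per exonic base in control hearts, the densest of the members. Duplicate read pairs had been removed before counting. Their part in this value was not tested.

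The log2 ratio of Hscb to Hspa9 was -4.54 ± 0.123 in control and -4.20 ± 0.169 in IDA hearts. The difference of 0.34 (SE 0.066, permutation p = 0.0001) was between the shortest member and the longest. It was -0.05 with the length correction (p = 0.39) and -0.14 with length and GC content (p = 0.024), so that the direction of this ratio depends on the correction.

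Glrx5 encodes the monothiol glutaredoxin that carries the new cluster onward (chr12:105032689-105040910, plus strand, 930 exonic bases). Control mice had 74.9 to 92.6 CPM with a median of 81.3, and IDA mice 88.2 to 112 CPM with a median of 99.4. In IDA, 9 of 10 hearts stood above the highest control heart. The rise was 1.23-fold, a log2 fold change of 0.30 (SE 0.050, edgeR adjusted p = 1.5e-05). With the length correction it was 0.0012 (95% interval -0.07 to 0.07). With length and GC content it was -0.09 (adjusted p = 0.028), a call in the lower direction. The corrected value depends on which length is taken. The annotation used for counting ends 1996 bases before the end of the gene in GENCODE, whose longest coding transcript has 2925 bases, and with GENCODE lengths the corrected value was 0.29 (adjusted p = 5.5e-05).

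**Figure D2:**
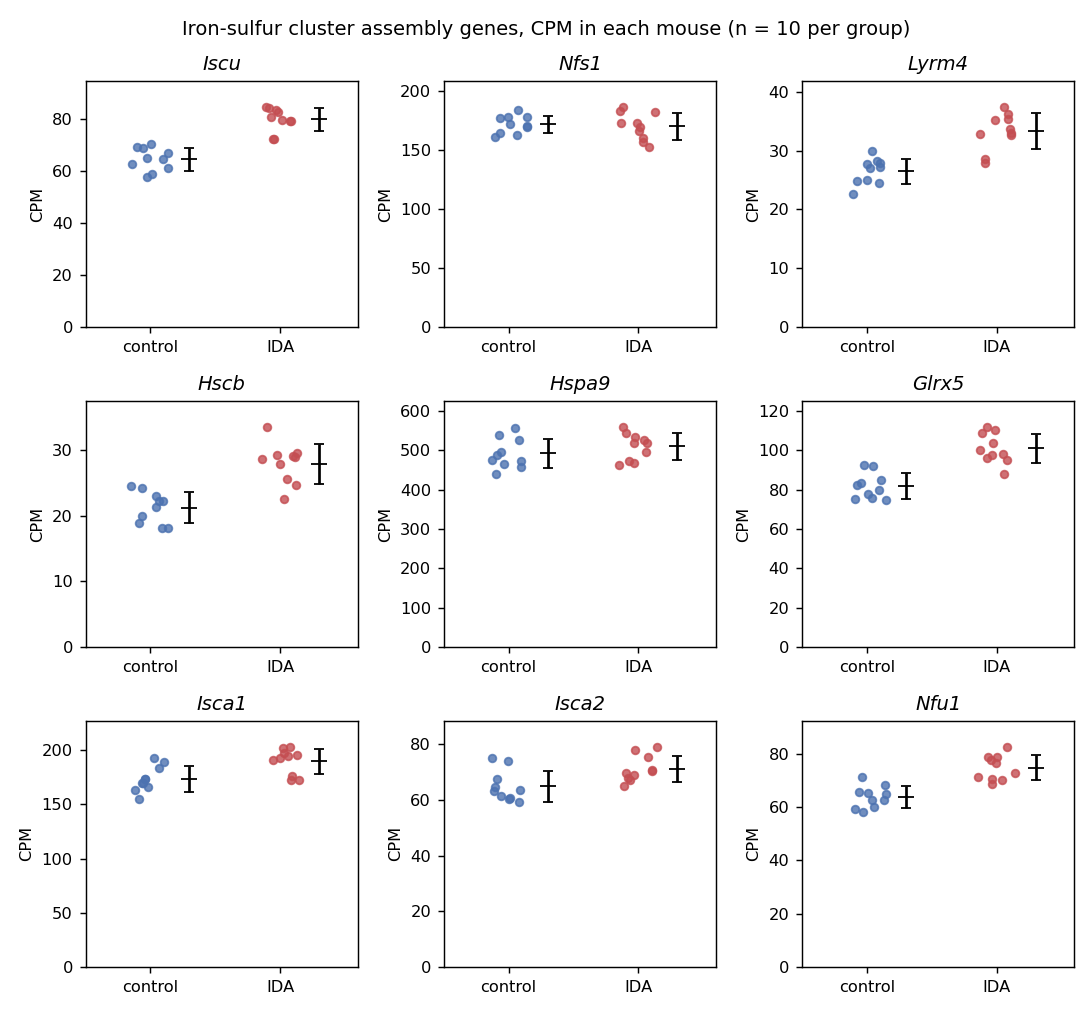
CPM of each member in each control (blue) and IDA (red) mouse, with the mean and SD of 10 mice per group in black; all axes start at 0. The Iscu groups do not overlap, the other members that rose overlap by 1 to 7 IDA mice, and the Nfs1 and Hspa9 groups share most of their range.

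Isca1 and Isca2 encode the A-type proteins, which act together in the step to [4Fe-4S] clusters. Isca1 (chr13:59755415-59769789, minus strand, 1915 exonic bases) had 155 to 193 CPM in control mice with a median of 171, and 172 to 203 CPM in IDA mice with a median of 194. Isca2 (chr12:84773270-84775089, plus strand, 868 exonic bases) had 59.3 to 75.1 CPM in control mice with a median of 63.3, and 64.9 to 79.0 CPM in IDA mice with a median of 70.1. The groups overlapped for each gene, with 6 of 10 IDA hearts above the highest control for Isca1 and 3 of 10 for Isca2. Isca1 rose by 0.13 on the log2 scale (SE 0.043, edgeR adjusted p = 0.012). The rise of Isca2 was also 0.13 (SE 0.050, adjusted p = 0.021). Both were small calls: leaving out 1 mouse of each group ended that of Isca1 in 5 of 100 combinations, all without control replicate 8, with adjusted p up to 0.070, and that of Isca2 in 29, with adjusted p up to 0.11. Library size as a covariate left 0.01 for Isca1 (adjusted p = 0.77) and 0.03 for Isca2 (adjusted p = 0.60). With the mean erythroid marker level as a covariate the values were not smaller, at 0.14 and 0.15. Their SE widened to 0.076 and 0.089, and neither was called (adjusted p = 0.13 and 0.17). That level was at most 3.18 in control and at least 3.76 in IDA mice (mean log2 CPM), so this fit separates it from diet poorly.

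The A-type genes parted once length was taken into account. Isca1 then differed by -0.0023 (adjusted p = 0.97) and Isca2 by -0.18 (SE 0.037, adjusted p = 0.00033). All 10 IDA mice lay below the control mean of Isca2, with corrected log2 CPM of 5.93 to 6.15 against 6.06 to 6.30 in control mice. Length and GC content together gave -0.17 for Isca2 (adjusted p = 0.00066) and GENCODE lengths -0.20 (adjusted p = 9.9e-05). The log2 ratio of Isca1 to Isca2 differed by -0.0066 between the diets without correction (SE 0.031, permutation p = 0.83). It differed by 0.18 with the length correction (p = 2e-05) and by 0.25 with length and GC content (p = 2e-05), each toward Isca1.

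Nfu1 encodes a late carrier that delivers [4Fe-4S] clusters to lipoic acid synthase and complexes I and II (chr6:87009836-87028461, plus strand, 955 exonic bases). Control mice had 58.1 to 71.1 CPM with a median of 63.7, and IDA mice 68.7 to 82.4 CPM with a median of 74.5. In IDA, 7 of 10 hearts stood above the highest control heart. The rise was 1.17-fold, a log2 fold change of 0.23 (SE 0.044, edgeR adjusted p = 9e-05). With the length correction it was -0.07 (adjusted p = 0.093), and with length and GC content -0.02 (adjusted p = 0.67). The log2 ratio of the late carrier Nfu1 to the early carrier Glrx5 was -0.36 ± 0.058 in control and -0.43 ± 0.050 in IDA hearts. The difference of -0.07 (SE 0.024, permutation p = 0.0094) was -0.07 with the length correction (p = 0.013) and 0.08 with length and GC content (p = 0.0070).

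**Figure D3:**
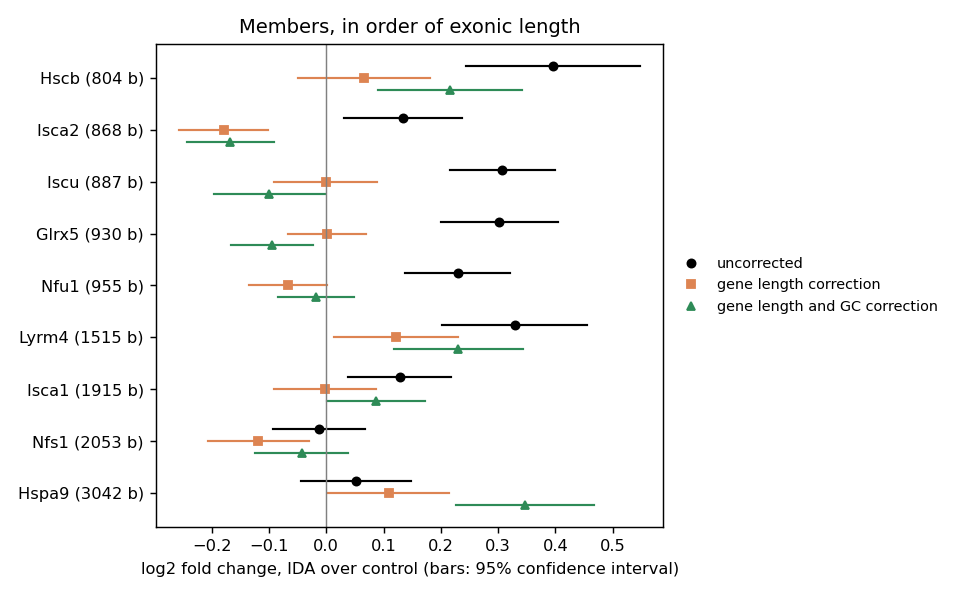
Log2 fold change of the 9 members, IDA over control, in order of exonic length (in bases, b), with 95% confidence intervals, uncorrected (black), with the length correction (orange) and with length and GC content corrected (green). The 5 shortest members move down by about the same amount between black and orange, Isca2 passes to the other side of 0, and the points of Lyrm4, Hscb and Hspa9 lie above 0 under all 3.

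The levels of the members were compared per kilobase of exon (FPKM). In control hearts Hspa9 stood first at 162 ± 12.3 FPKM (SD, n = 10), apart from all others. Isca1 at 90.7, Glrx5 at 88.2, Nfs1 at 83.8, Isca2 at 74.8, Iscu at 72.9 and Nfu1 at 66.8 FPKM followed in a band in which each overlapped its neighbour. Hscb at 26.4 ± 2.96 and Lyrm4 at 17.5 ± 1.44 FPKM stood below this band and apart from each other. In IDA hearts the first place and the last 2 were held by the same genes, with Hspa9 at 168, Hscb at 34.7 and Lyrm4 at 21.9 FPKM. Within the band Iscu moved from the fifth place of the band to the third, at 90.2 FPKM, and Glrx5 came before Isca1, at 109 against 99.1 FPKM. Lyrm4 was thus measured at a much lower level than the desulfurase it stabilizes in either group. FPKM values use the exonic length of the count table, which for Glrx5, Lyrm4, Iscu and Nfu1 is more than 200 bases shorter than their longest coding transcript in GENCODE.

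**Figure D4:**
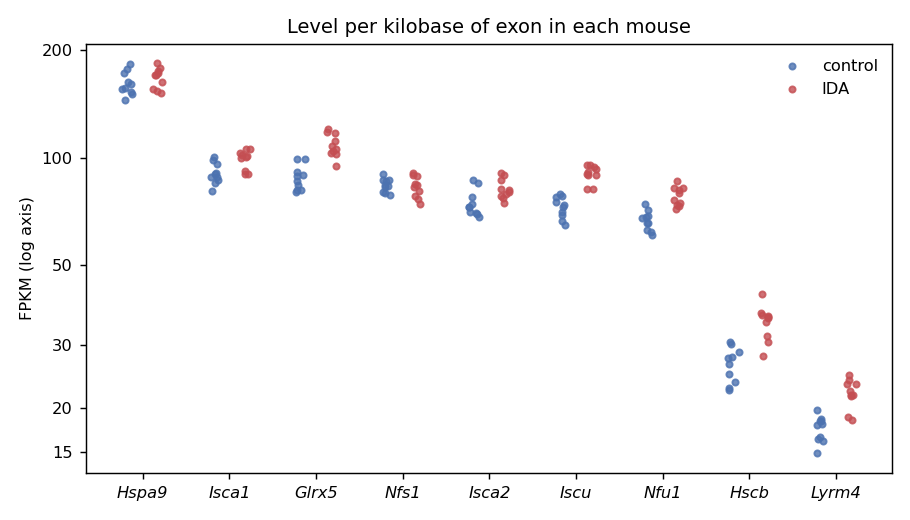
Level of each member per kilobase of exon (FPKM, log axis) in each control (blue) and IDA (red) mouse, in order of the control mean. Hspa9 lies above, and Hscb and Lyrm4 lie below, a band of 6 members that overlap their neighbours in both groups.

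Of 12 further genes that work with the members, 10 were higher in IDA, 0 were lower and 2 did not pass the test, against the 35% and 32.5% of all tested genes. Their median log2 fold change was 0.31. Unlike the members, which had 0 higher calls after the length correction, this list then had 7 higher and 2 lower, with a median of 0.22. Among all tested genes 31.5% were then higher and 23.5% lower. The 2 lower calls, Ndufab1 and Bola3, were calls in the higher direction with GENCODE lengths. The difference between the lists was not tested. Their median exonic length was 1484 bases.

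The highest values were those of Fdx1l, Bola1 and Dnlz, and all 3 rose. Fdx1l (ferredoxin 2, which supplies electrons) had 3.38 ± 0.594 CPM in control and 5.13 ± 0.856 CPM in IDA hearts, with groups that did not overlap (log2 fold change 0.60, edgeR adjusted p = 0.00014). Corrected for length it was 0.27 (adjusted p = 0.040), and for length and GC content 0.10 (adjusted p = 0.51). Its level was low, at 20 to 52 read pairs a mouse. Bola1, a factor of the glutaredoxin step, rose by 0.45 (adjusted p = 0.00022), and with the length correction had a difference of 0.10 (adjusted p = 0.25).

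The lowest values were those of Grpel2, Ndufab1 and Grpel1. Grpel2, a nucleotide exchange factor for HSPA9, differed by 0.03 uncorrected (adjusted p = 0.62) and by 0.22 corrected (adjusted p = 0.0031). Ndufab1, the acyl carrier protein bound by LYRM4, differed by 0.08 (adjusted p = 0.17) and by -0.25 corrected (adjusted p = 0.00049).

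Signs turned with the length correction for Bola3, from 0.24 to -0.14 (adjusted p = 0.0077), for Fdx1, from 0.31 to -0.0029 (adjusted p = 0.96), and for Ndufab1. With GENCODE lengths none of the 3 turned. Bola3 was then at 0.13 (adjusted p = 0.021), Fdx1 at 0.27 (adjusted p = 0.0003) and Ndufab1 at 0.15 (adjusted p = 0.028). Of the 12 partner genes, 4 were higher uncorrected and with both corrections, as were 14.1% of the genes with all 3 values, 0 of the 9 members and 0 of the 12 clients below. They were Iba57, Grpel1, Dnlz and Gfer, singled out after their values were seen. Iba57, which works with the A-type proteins, had log2 fold changes of 0.32 uncorrected, 0.57 corrected for length and 0.38 corrected for length and GC content. For Grpel1, the main exchange factor for HSPA9, the same values were 0.23, 0.33 and 0.44. For Dnlz, a zinc-ribbon escort of HSPA9, they were 0.39, 0.43 and 0.28. For Gfer, the sulfhydryl oxidase of the intermembrane space, they were 0.38, 0.22 and 0.14.

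**Figure D5:**
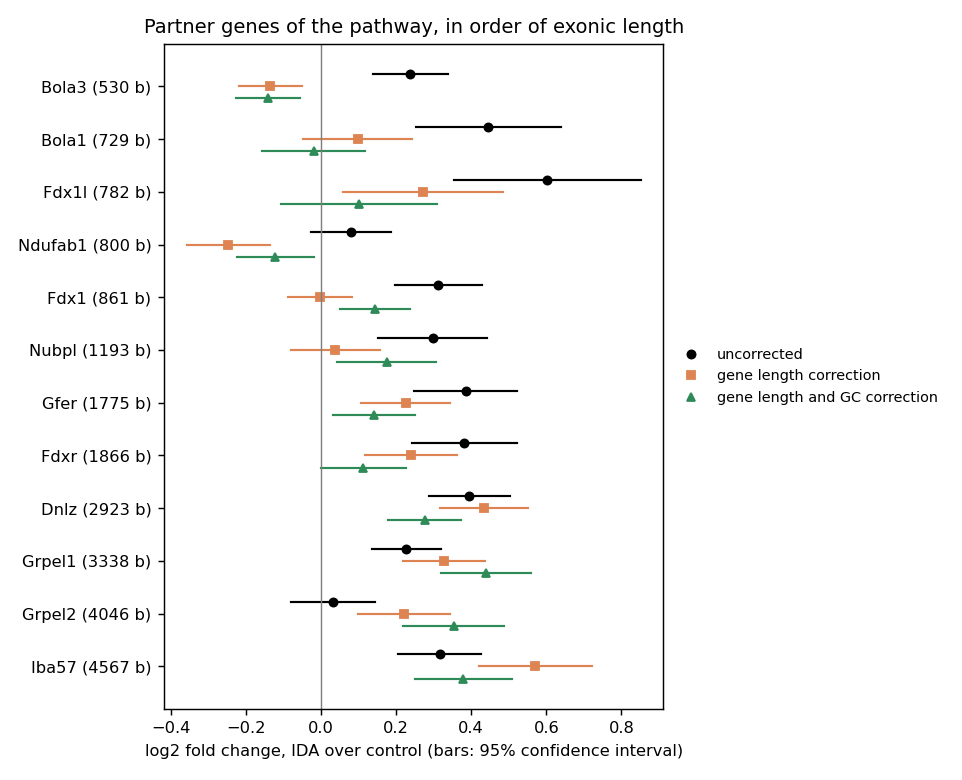
Log2 fold change of the 12 partner genes, IDA over control, in order of exonic length (in bases, b), with 95% confidence intervals, uncorrected (black), with the length correction (orange) and with length and GC content corrected (green). Dnlz, Grpel1, Iba57 and Gfer pass the test above 0 under all 3, and Bola3 passes to the other side of 0.

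Of 12 genes for mitochondrial proteins that receive the clusters, 8 were higher, 0 were lower and 4 did not pass the test, where 35% of all tested genes were higher and 32.5% lower. The median log2 fold change was 0.16. The highest were Ndufs8 (a complex I subunit) at 0.27, Mocs1 (molybdenum cofactor synthesis) at 0.24 and Lias (lipoic acid synthase) at 0.24. The lowest were Fech (ferrochelatase, the last enzyme of heme synthesis) at -0.10, Ndufs1 (a complex I subunit) at 0.01 and Etfdh (the electron transfer flavoprotein oxidoreductase) at 0.05, with edgeR adjusted p of 0.062, 0.83 and 0.40. With the length correction 1 client was higher, Mocs1 at 0.24 (adjusted p = 0.015), and 2 were lower, Ndufs7 at -0.14 (adjusted p = 0.011) and Sdhb at -0.12 (adjusted p = 0.036), where 31.5% of all tested genes were higher and 23.5% lower. Without it Ndufs7 had been higher by 0.20 and Sdhb by 0.15. The median was then -0.03. The sign also turned for Ndufs8 (to -0.01), Uqcrfs1 (0.16 to -0.07), Ndufv2 (0.16 to -0.05), Ndufv1 (0.16 to -0.03), Cdk5rap1 (0.09 to -0.03) and Etfdh (to -0.02), none called after the correction. Lias was then at 0.07 (adjusted p = 0.14), Ndufs1 at 0.05 (adjusted p = 0.41) and Fech at -0.07 (adjusted p = 0.23). With length and GC content 2 clients were higher, Ndufs1 at 0.20 (adjusted p = 0.0028) and Lias at 0.17 (adjusted p = 0.00062). In that setting 3 were lower, Ndufs7 at -0.26 (adjusted p = 0.00022), Sdhb at -0.17 (adjusted p = 0.0076) and Ndufs8 at -0.12 (adjusted p = 0.036). Of all 13489 genes in it, 3792 were higher and 2615 lower. With GENCODE lengths Fech turned from the lowest client to the highest, at 0.34 (adjusted p = 9.5e-06). Lias was also higher with them, at 0.24 (adjusted p = 5e-05), while Ndufs7 and Sdhb were lower. With library size as a covariate Ndufs8 (0.13) and Lias (0.17) remained higher, and Ndufs1 (-0.11), Etfdh (-0.08) and Fech (-0.16) were lower. Ndufs7 was then at 0.05, Ndufv1 at 0.02, Ndufv2 at 0.008, Uqcrfs1 at 0.007, Sdhb at -0.0034 and Mocs1 at 0.17, none called. Sdhb collected 1330 to 1390 read pairs in control and 1362 to 1472 in IDA mice. The part of duplicate removal in the clients' values was not tested.

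Other measures moved with diet across the same mice. Total assigned read pairs were 6797180 to 8960688 in control and 6682177 to 7833916 in IDA libraries. With library size as a covariate Isca1 differed by 0.01 (edgeR adjusted p = 0.77), Isca2 by 0.03 (adjusted p = 0.60), Nfs1 by -0.09 (adjusted p = 0.030) and Hspa9 by -0.07 (adjusted p = 0.011). The other 5 members remained higher, at 0.16 to 0.28. Erythroid markers, of which 3 of 12 listed passed the filter and all 3 were higher, summed to 51.6 to 125 CPM in control and 134 to 563 CPM in IDA hearts, with Hba-a1, Hba-a2 and Hbb-b2 at 0 in every mouse. With their mean as a covariate 5 members remained higher, while Isca1 had 0.14 and Isca2 0.15. Within a diet group the corrected level of a member was related to the mean erythroid marker level in 0 of 18 tests (permutation test of Pearson's r, 100000 resamples, 9 members in 2 groups, adjusted p = 0.98 in each). The r values ran from -0.48 (Glrx5 in IDA mice) to 0.60 (Lyrm4 in control mice). With 10 mice a group these tests can miss a moderate relation. Cardiomyocyte markers, all 8 measured, summed to 6070 to 9312 CPM in control and 4911 to 7751 CPM in IDA hearts, with 2 higher and 2 lower. The skeletal muscle markers summed to 0.74 to 2.49 CPM in control and 0.59 to 16.0 CPM in IDA hearts. Their medians were close, at 1.35 and 1.48 CPM, and 0 of 1 tested was called. Adipocyte markers summed to 47.6 to 75.9 CPM in control and 70.0 to 89.1 CPM in IDA hearts, with 1 of 3 tested higher, and atrial cardiomyocyte markers to a median of 293 and 444 CPM, with 1 of 4 higher. The part of the skeletal muscle, adipocyte and atrial markers in the members' values was not tested. These marker sums were not corrected for gene length. In whole tissue, fewer cells of a type, less RNA per cell and the length trend cannot be told apart. The lower series of library numbers held 5 control and 7 IDA mice and the upper series 5 control and 3 IDA mice, and the labels do not say what the numbers mark. In the lower series 8 members were higher, Hspa9 included at 0.14 (adjusted p = 0.038), where 30.2% of all tested genes were. In the upper series 2 were higher, Glrx5 at 0.26 (adjusted p = 0.025) and Nfu1 at 0.22 (adjusted p = 0.045), where 19.4% of all tested genes were, with Iscu at 0.18 (adjusted p = 0.060).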

How the data were processed

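The deposited counts are whole read pairs per gene. Per the labels and the study's methods, the authors used STAR to map paired reads of poly(A)-selected RNA on mm10, discarded PCR duplicates through SAM tools, and ran featureCounts 1.4.5-p1 on exons without strand. The STAR version is not given in the sources used here. Each library was 1 mouse. Of the row names, 27 are dates in place of symbols and 2 occur in duplicate, with no member among them. The length column is the exonic length in bases.

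Counts were analysed with edgeR 4.0.16 in R 4.3.3 (TMM factors, quasi-likelihood test, diet alone, 20 mice) over the 13590 genes that reached 1 CPM in 10 or more mice, leaving 9830 genes out. Adjusted p below 0.05 was called. CPM are scaled by TMM factors, and FPKM are CPM per kilobase of exonic length. The length correction removed, in each mouse, a loess trend (span 0.5, degree 1) on log2 exonic length, entered as offsets. The trend was fitted to the log2 CPM of each gene minus its mean over the 20 mice. The GC correction added GC content of GENCODE M21 transcripts for 99.3% of tested genes. Ratios and relations to the erythroid markers were tested by permutation with 100000 resamples. DESeq2 1.42.0, other scalings, filters, covariates and left-out mice were alternatives. The fits were tested on simulated data. All 9 members, the partner genes (Fdx1, Fdx1l, Fdxr, Ndufab1, Iba57, Bola1, Bola3, Nubpl, Grpel1, Grpel2, Dnlz, Gfer) and the clients (Sdhb, Ndufs1, Ndufs7, Ndufs8, Ndufv1, Ndufv2, Uqcrfs1, Etfdh, Lias, Fech, Mocs1, Cdk5rap1) were chosen with earlier results of these data known. A total of 3 further listed genes are not reported here, and the lists are counted without them. Of the latter lists, the 3 highest, the 3 lowest and genes whose sign turned with the length correction were named. The median total was 7902932 read pairs in control and 6806177 in IDA libraries.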

Additional observations from a re-analysis of the deposited data

How the results depend on the processing

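With DESeq2 size factors and with DESeq2's Wald test 1 client gene was lower, Fech, in place of 0. With upper quartile factors Nfs1 had a log2 fold change of 0.014. The length correction left 0 members higher and 2 lower, 2 partner genes lower, and 1 client higher and 2 lower. Signs turned for Iscu (-0.0013), Isca1 (-0.0023), Isca2 (-0.18) and Nfu1 (-0.067), and for the ratios of Isca1 to Isca2 (0.18) and Hscb to Hspa9 (-0.046). With GENCODE lengths, chosen after seeing the data, 2 members were higher and 2 lower, and 2 clients were higher and 2 lower, with Isca1 at -0.044, Isca2 at -0.20 and Nfu1 at -0.059. With GC content added, 3 members were higher and 2 lower, where 3792 of 13489 genes were higher and 2615 lower. In that setting 2 partner genes were lower, and 2 clients were higher and 3 lower. Iscu was then at -0.10, Glrx5 at -0.095, Isca2 at -0.17 and Nfu1 at -0.018, and the ratios of Isca1 to Isca2 (0.25), Hscb to Hspa9 (-0.14), Iscu to Nfs1 (-0.056) and Nfu1 to Glrx5 (0.077) turned. With library size as a covariate 2 members were lower, Hspa9 at -0.075 among them, and 2 clients were higher and 3 lower. With the erythroid marker mean as a covariate 4 clients were higher and 1 was lower. For GENCODE lengths and for the library size and erythroid covariates, the shares of all tested genes called are not given here. The counts in those settings therefore stand without a background. The causes were not tested.

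Same-numbered mice of the groups did not deviate together (correlations -0.278 to 0.264, 3 of 10 best with their own number). A replicate block left 7 members higher and changed no member's call. A replicate block with the length correction left 0 members higher and 1 lower, 2 partner genes lower, and 1 client higher and 1 lower, with Iscu at -0.0018, Isca1 at -0.0031, Isca2 at -0.18 and Nfu1 at -0.067. The shares of all tested genes called with a block are not given here, so these counts also stand without a background.

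All genes called among the libraries of the upper number series (5 control, 3 IDA; chosen after seeing the data) numbered 5906, of which 2635 were higher, with 2 members and 1 client higher and Hspa9 at -0.054. The ratios were then -0.34 for Nfs1 to Lyrm4, 0.33 for Hscb to Hspa9, 0.25 for Iscu to Nfs1 and -0.045 for Nfu1 to Glrx5, none past the adjusted threshold; the smallest two-sided p that an exact test of 5 against 3 mice allows is 0.036, which the first 3 of these reached. In the lower series Nfs1 was at 0.023 and the ratio of Isca1 to Isca2 at 0.023.

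Leaving out 1 mouse of each group gave 5 to 7 members higher and 0 lower, 10 to 11 partner genes higher and 0 lower, 6 to 9 clients higher and 0 to 1 lower, Nfs1 at -0.049 to 0.015 and the ratio of Isca1 to Isca2 at -0.025 to 0.016. Among the 13590 tested genes, 4297 to 4879 were then higher and 4131 to 4628 lower. At 139 to 289 read pairs a mouse, Hscb and Lyrm4 are the members with the widest standard errors. Per the study's methods mice shared cages, but which mice did so, and which were littermates, is not given. The p-values therefore measure the spread between these mice.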

Other observations

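The 5 tested genes whose level followed Iscu most closely over the 20 mice, once each group's mean and the length trend were removed, were Dnajb12 (Pearson's r = 0.86), Beta-s (0.85), Trappc6b (0.84), BC003331 (0.84) and Atpif1 (0.83). Among the members Nfs1 came first (r = 0.68, rank 284 of the 13590 genes) and Hscb last (r = 0.21, rank 4470). The points share their libraries, and these values are a description over 20 mice. The gene listed as Beta-s, named for a hemoglobin beta chain, had 279 to 339 read pairs in control and 336 to 390 in IDA mice, a narrower spread than that of the erythroid markers.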
